A study of Mus musculus with 4 samples.

Results

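Tetraspanins are small membrane proteins that cross the membrane several times and gather partner proteins into patches. The description here covers Cd9, Cd63, Cd81, Cd82, Cd37, Cd53 and Cd151, 7 genes taken by symbol from the 19737 genes of the deposited table. Microglia of 20 mice were profiled by single-cell RNA-seq 24 h after 1 intravenous antibody dose of 10 mg/kg, and the 5 groups held 4 mice each. The 2 groups of WT;TfRmu/hu mice (WT below) were treated with ATV:ISO and with ATV:4D9, and the 3 groups of AppSAA;TfRmu/hu mice (App below) with ATV:ISO, with 4D9 and with ATV:4D9. Every mouse, controls included, carried the TfRmu/hu knock-in on a C57BL/6J background, in which the mouse transferrin receptor holds the human apical domain that the antibody transport vehicle (ATV) binds. AppSAA is a knock-in of familial Alzheimer's disease mutations into App. 4D9 is an antibody to mouse TREM2, and ATV:ISO carries no TREM2 binding. The cohort labels give ATV:4D9, 4D9 and the isotype Fc parts that are not the same, so antibody target, transport vehicle and Fc part were not varied 1 at a time. The App mice were males aged 8 months. The study lists its WT mice, over all its experiments together, as of mixed sex and a wider age range, and 1 WT ATV:ISO mouse here was recorded as female. Its methods state that groups were balanced and that age and sex were matched. Ages are not given per mouse, so age cannot be told apart from genotype in the comparisons between WT and App mice. Without the mouse recorded as female, 3 members were called for App against WT mice under ATV:ISO and 3 for the interaction below, as with it.

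The 7 proteins divide by where they work. CD9, CD81 and CD151 sit mainly at the cell surface, where CD9 and CD81 bind immunoglobulin-type partners and CD151 binds laminin-binding integrins. CD63 is a protein of late endosomes and lysosomes and, with CD9 and CD81, a usual marker of exosomes, and CD82 limits receptor signalling and cell movement. CD37 and CD53 are largely restricted to blood-lineage cells, in which they organise integrins and signalling receptors. Cd9 and Cd63 are also among the genes that rise in microglia near amyloid plaques.

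In GRCm38, with genes as in GENCODE vM21, Cd9 (ENSMUSG00000030342) lies at chr6:125460266-125494791 on the minus strand and Cd63 (ENSMUSG00000025351) at chr10:128900989-128912822 on the plus strand. Cd82 (ENSMUSG00000027215) lies at chr2:93419111-93463140 (minus), Cd37 (ENSMUSG00000030798) at chr7:45233632-45239115 (minus) and Cd53 (ENSMUSG00000040747) at chr3:106759921-106790149 (minus). Cd81 (ENSMUSG00000037706, chr7:143052739-143067934) and Cd151 (ENSMUSG00000025510, chr7:141467392-141471473) are both on the plus strand. Because Cd9 and Cd63 rose together and Cd37 and Cd53 fell together below, the 120 bases upstream of their RefSeq start sites (GRCm38.p6) are shown 5′ to 3′ on the strand of the gene. Capitals mark GAGGAAG, a core bound by PU.1, the factor that defines the myeloid lineage, and GGGCGG, the GC box bound by Sp-family factors, each searched on both strands.
Cd9: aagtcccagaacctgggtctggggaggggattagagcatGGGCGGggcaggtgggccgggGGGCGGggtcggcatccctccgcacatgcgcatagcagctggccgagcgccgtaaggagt
Cd63: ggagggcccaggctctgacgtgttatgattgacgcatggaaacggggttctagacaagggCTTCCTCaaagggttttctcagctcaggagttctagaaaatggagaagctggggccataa
Cd37: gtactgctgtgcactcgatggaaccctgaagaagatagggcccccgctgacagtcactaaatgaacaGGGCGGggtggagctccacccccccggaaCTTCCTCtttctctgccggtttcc
Cd53: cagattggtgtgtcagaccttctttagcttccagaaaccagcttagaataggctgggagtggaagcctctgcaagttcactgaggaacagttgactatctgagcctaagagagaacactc
These are chr6:125494761-125494880 (Cd9), chr10:128909225-128909344 (Cd63), chr7:45238840-45238959 (Cd37) and chr3:106790150-106790269 (Cd53). The RefSeq start used for Cd63 lies 8356 bases inside the GENCODE gene, so its window is upstream of that start and not of the whole gene model. Within the 2 pairs shown, chosen after seeing the results, neither motif was shared: Cd9 held the GC box, Cd63 the GAGGAAG core, Cd37 both and Cd53 neither. Cd81 and Cd151, whose levels also went together below, both held the GC box. Over all 32851 RefSeq windows the GAGGAAG core was present in the 120 upstream bases of 5.52% and the GC box in 26.5%. Of the 11 windows of the members, 2 held the core (Cd37 and Cd63) and 6 the GC box (1 or more windows of Cd9, Cd37, Cd81, Cd82 and Cd151).

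The deposited table holds 74758 cells, 2193 to 6126 per mouse, with 17150296 to 102446549 unique molecular identifiers (UMIs, each standing for 1 captured transcript) summed per mouse. Cells were deeper after ATV:4D9: the median UMI count per cell averaged 7566 in WT ATV:ISO, 15338 in WT ATV:4D9, 9338.5 in App ATV:ISO, 9741 in App 4D9 and 15523 in App ATV:4D9 mice. The 9 microglia markers were all detected and summed to 13693 to 25766 CPM (counts scaled to a library of fixed size) in every mouse. Summed markers of border macrophages (7 genes, 11.9 to 39.2 CPM), monocytes (5 genes, 4.09 to 13.7), oligodendrocytes (6 genes, 33.6 to 73.5), astrocytes (5 genes, 61.5 to 165), endothelial cells (4 genes, 9.54 to 52.4), neutrophils (5 genes, 4.04 to 22.8), T or NK cells (5 genes, 0.154 to 2.28) and neurons (4 genes, 0.449 to 2.05) were far lower. Of the B cell markers, Cd79a (0 to 0.504 CPM) and Ms4a1 (0 to 0.197) were at or near 0 in every mouse, while Cd79b stood at 26.9 to 30.5 CPM in WT ATV:ISO, 16.6 to 25.8 in WT ATV:4D9, 17.2 to 20.4 in App ATV:ISO, 16.6 to 21.4 in App 4D9 and 15.6 to 20.3 in App ATV:4D9 mice. Some of these moved with the groups, the astrocyte sum being 136 to 165 in WT ATV:ISO and 61.5 to 75.9 in WT ATV:4D9 mice and the endothelial sum 37.5 to 52.4 in App ATV:ISO mice, and their part in the results was not tested. Barcodes occurring in more than 1 pool numbered 543, in 1089 cells. Levels below are CPM of the UMIs summed per mouse, with the library size scaled by TMM as in the fits. Because the chemistry counts 3′ ends, levels are compared between groups of mice and not between genes. All 7 members passed the filter on low counts that left 14058 genes.

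**Figure D1:**
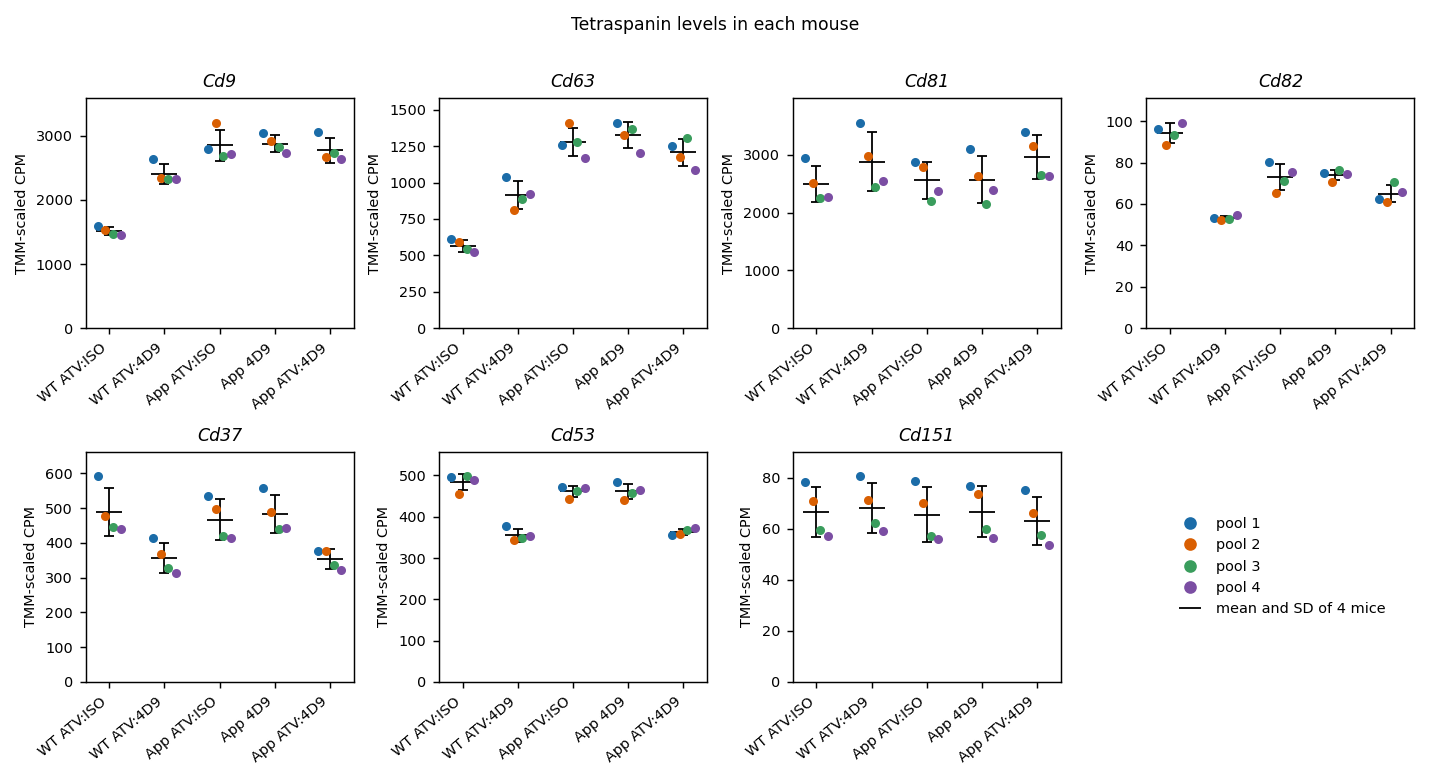
TMM-scaled CPM of each tetraspanin (vertical axis, linear, separate scale per gene) in each of the 20 mice, by group, with points for mice coloured by pool and bars for the mean and SD of 4 mice. Cd9 and Cd63 are lowest in the 4 WT ATV:ISO mice, Cd82 is lowest in the 4 WT ATV:4D9 mice, and the means of Cd37 and Cd53 are lower in both ATV:4D9 groups than in the other groups.

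WT mice given ATV:4D9 had more Cd9 and Cd63 and less Cd82, Cd37 and Cd53 than those given ATV:ISO, while Cd81 and Cd151 did not pass the test. Cd9, which binds partners at the cell surface, stood at 1594, 1536, 1476 and 1454 CPM in the 4 WT ATV:ISO mice (pools 1 to 4) and at 2645, 2339.7, 2323 and 2321 CPM in the 4 WT ATV:4D9 mice. All treated mice were above all controls, and the log2 difference was 0.67 (SE 0.0763, adjusted p = 2.38e-07). Cd63, the endosomal and lysosomal member, was 611, 591, 541 and 523 CPM under ATV:ISO and 1036, 809, 884 and 922 CPM under ATV:4D9. The groups again did not overlap, with a log2 difference of 0.69 (SE 0.0877, adjusted p = 1.03e-06). Cd82 moved the other way, from 96.1, 88.2, 93.1 and 99.3 CPM to 53.0, 52.0, 52.5 and 54.8 CPM, a log2 difference of −0.83 (SE 0.0675, adjusted p = 1.96e-09). The 4 treated mice lay within a range far narrower than the gap to the lowest control. Cd37 fell from 592, 476, 447 and 440.2 CPM to 413, 369, 329 and 314 CPM (log2 difference −0.46, SE 0.115, adjusted p = 0.00175). Cd53, the other blood-lineage member, fell from 496, 455, 498 and 489 CPM to 378, 343, 349 and 352 CPM (log2 difference −0.45, SE 0.0577, adjusted p = 1.24e-06). For both genes every treated mouse was below every control. Of the 7 members 2 were called higher and 3 lower, against a background of 30.8% of 14058 genes called higher and 32.5% lower, 63.3% in all, so the number called is not in itself particular to the tetraspanins. In either direction, 34.6% of the genes tested differed by more than Cd9, 33.2% by more than Cd63 and 25.6% by more than Cd82. The share was 51.6% for Cd37 and 52.7% for Cd53. How many of all genes do not overlap between groups was not counted, here or below, so non-overlap only describes the mice.

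Cd81, a surface partner of immunoglobulin-type proteins, differed mostly between pools. It was 2939.5, 2510, 2254 and 2277 CPM in the WT ATV:ISO mice of pools 1 to 4 and 3560, 2977, 2449 and 2553 CPM in the WT ATV:4D9 mice. Pool 1 was the highest in both groups, the groups overlapped, and the treated mouse was the higher one in each of the 4 pools. The log2 difference was 0.21 (adjusted p = 0.191), and with the pool as a block, where 74.6% of genes were called, it was 0.20 with an adjusted p of 0.000634. Cd151, the integrin-binding member, showed the same layering by pool in every group, with 78.3, 70.8, 59.5 and 57.2 CPM in WT ATV:ISO and 80.5, 71.3, 62.1 and 58.9 CPM in WT ATV:4D9 mice. Its log2 difference was 0.04 (adjusted p = 0.828). Cd37, given above, was also higher in pools 1 and 2 than in pools 3 and 4 in every group.

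Under ATV:ISO, the App mice had more Cd9 and Cd63 and less Cd82 than the WT mice, and the other 4 members did not pass the test. This comparison and the one above share the WT ATV:ISO mice. Cd9 was 2793, 3204, 2687 and 2710 CPM in the App mice, all above the WT range given above (log2 difference 0.91, SE 0.0766, adjusted p = 1.94e-08). Cd63 was 1257, 1408, 1278 and 1170 CPM, with a mean of 1278 ± 98.6 (SD, n = 4) against 567 ± 41.7 (SD, n = 4) in WT mice. The log2 difference of Cd63 was 1.17 (SE 0.0885, adjusted p = 3.81e-09), and only 5.26% of the genes tested differed by more in either direction (8.05% for Cd9). Cd82 was 80.1, 65.2, 71.3 and 75.3 CPM, below every WT ATV:ISO mouse, with a log2 difference of −0.37 (SE 0.0672, adjusted p = 3e-04). The background was 28.2% of genes called, 14.4% higher and 13.7% lower. The median absolute log2 difference was 0.07 for the 7 members and 0.22 for all genes. Cd37 was 535, 498, 421 and 414 CPM and overlapped the WT mice (log2 difference −0.07, adjusted p = 0.720). Cd53 was 473, 442, 461 and 469 CPM (log2 difference −0.07, adjusted p = 0.393). The scaling matters for these 2 genes: with the total UMI count alone and no TMM factor, chosen after seeing the data, the median of all genes shifted to −0.24 on the log2 scale and both were called lower, Cd37 by −0.25 (adjusted p = 0.0169) and Cd53 by −0.26 (adjusted p = 0.00383). On that scaling 1512 genes were called higher and 5275 lower, against 2028 and 1932 with TMM. Cd81 (2881, 2784, 2196 and 2382 CPM) and Cd151 (78.5, 70.2, 57.1 and 56.0 CPM) overlapped the WT mice (log2 differences 0.04 and −0.02, adjusted p = 0.874 and 0.931).

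App mice given ATV:4D9 had less Cd37, Cd53 and, with a smaller difference, Cd82 than App mice given ATV:ISO, and Cd9 and Cd63 were not called different. Cd37 was 378, 377, 335 and 321 CPM under ATV:4D9, below every App ATV:ISO mouse, with a log2 difference of −0.40 (SE 0.115, adjusted p = 0.00547). Cd53 was 356, 358, 368 and 372 CPM, and its log2 difference was −0.34 (SE 0.0576, adjusted p = 4.54e-05). The lowest App ATV:ISO mouse, at 442 CPM, stood well above these 4 values. Cd82 was 62.6, 61.1, 70.5 and 65.6 CPM, the groups overlapped, and the log2 difference was −0.17 (SE 0.0669, adjusted p = 0.0393). The Cd82 call was lost in 6 of the 8 fits that left out 1 mouse, namely App ATV:ISO replicate 1 (−0.12, adjusted p = 0.148), 3 (−0.18, adjusted p = 0.0522) or 4 (−0.15, adjusted p = 0.0955) and App ATV:4D9 replicate 1 (−0.15, adjusted p = 0.0892), 2 (−0.14, adjusted p = 0.110) or 4 (−0.16, adjusted p = 0.0864). It was also lost without the filter on low counts (−0.15, adjusted p = 0.0970), within 1000 to 25000 UMIs per cell (−0.12, adjusted p = 0.151) and without the cluster highest in cell cycle genes (−0.06, adjusted p = 0.479). With the pool as a block Cd82 was called (−0.17, adjusted p = 0.00276), and the ATV:4D9 mouse was the lower one in each of the 4 pools. Cd9 was 3056, 2661.5, 2734 and 2634.5 CPM (log2 difference −0.04, adjusted p = 0.684), and Cd63 was 1254, 1177, 1307 and 1088 CPM (log2 difference −0.08, adjusted p = 0.440). Both overlapped the App ATV:ISO mice, and both differences turned to above 0 without the cluster highest in cell cycle genes (0.047 and 0.070). With the total UMI count alone Cd9 was called lower (−0.11, adjusted p = 0.0398). Cd81 was 3405, 3158, 2649 and 2633 CPM, higher than the App ATV:ISO mouse of the same pool in all 4 pools. Its log2 difference was 0.21 (adjusted p = 0.203), and with the pool as a block 0.21 with an adjusted p of 0.000513. Cd151 was 75.1, 65.9, 57.3 and 53.7 CPM (log2 difference −0.05, adjusted p = 0.771). The background here was 55.1% of genes called, 27.9% higher and 27.1% lower, and 70.7% with the block. In either direction, 45.2% of the genes tested differed by more than Cd37, 51.6% by more than Cd53 and 74.9% by more than Cd82.

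4D9 without the transport vehicle left the members close to the App ATV:ISO values. Cd9 was 3042.5, 2914, 2823 and 2729.9 CPM, Cd63 1411.5, 1327, 1367 and 1204 CPM, and Cd82 74.9, 70.4, 76.2 and 74.6 CPM. Cd37 was 557, 488, 441 and 444 CPM and Cd53 was 485, 439.8, 458 and 464 CPM. Cd81 was 3102, 2629.8, 2153 and 2399 CPM and Cd151 76.7, 73.4, 59.7 and 56.5 CPM. The fitted log2 differences of the 7 members ran from 0.001 (Cd53) to 0.05 (Cd63) and none was called. Over all 14058 genes edgeR called 0, with 79 at an unadjusted p under 0.05, DESeq2 called 1 and limma-voom 0, so the background was 0%. Against these App 4D9 mice, App ATV:4D9 mice had lower Cd37 (log2 difference −0.45, adjusted p = 0.00249), Cd53 (−0.35, adjusted p = 4.49e-05) and Cd82 (−0.19, adjusted p = 0.0222), against 27.6% of all genes called higher and 26.7% lower, 54.3% in all. Cd37 and Cd53 did not overlap between these groups. The Cd82 call was lost without App 4D9 replicate 3 (−0.17, adjusted p = 0.0584) or App ATV:4D9 replicate 1 (−0.17, adjusted p = 0.0553), 2 (−0.16, adjusted p = 0.0693) or 4 (−0.17, adjusted p = 0.0597), and also without the filter on low counts (−0.17, adjusted p = 0.0612), within 1000 to 25000 UMIs per cell (−0.13, adjusted p = 0.121) and without the cluster highest in cell cycle genes (−0.09, adjusted p = 0.313). Cd9 (−0.05, adjusted p = 0.573), Cd63 (−0.14, adjusted p = 0.193), Cd81 (0.20, adjusted p = 0.219) and Cd151 (−0.08, adjusted p = 0.663) were not called. With the total UMI count alone Cd9 (−0.12, adjusted p = 0.0322) and Cd63 (−0.20, adjusted p = 0.0140) were called lower too. With the pool as a block, where 69.9% of genes were called, Cd82 was −0.19 (adjusted p = 0.00100), lower in each of the 4 pools, and Cd81 (0.21, adjusted p = 0.000559) and Cd151 (−0.08, adjusted p = 0.0258) were called as well. This comparison shares the App ATV:4D9 mice with the one before.

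**Figure D2:**
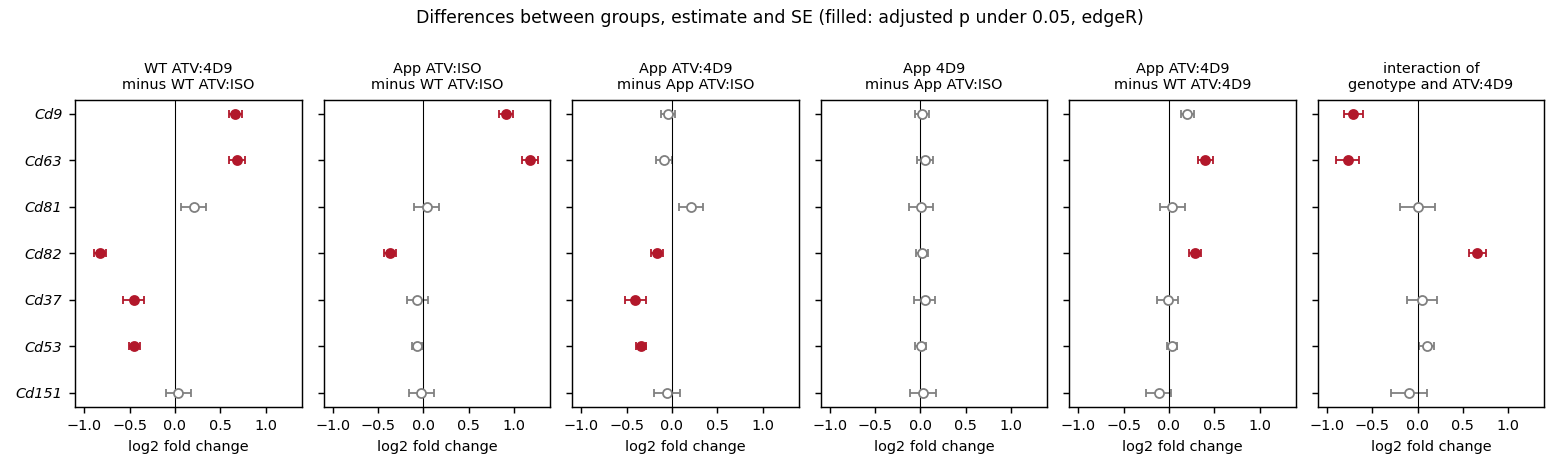
Fitted log2 difference (horizontal axis) of each tetraspanin in 5 comparisons of 4 mice against 4 and in the interaction of genotype and ATV:4D9, with bars for 1 SE and filled points where the adjusted p was under 0.05. The interaction is called for Cd9, Cd63 and Cd82, ATV:4D9 is called lower for Cd37 and Cd53 in mice of both genotypes, and no member is called for 4D9 alone.

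The response to ATV:4D9 differed between genotypes for Cd9, Cd63 and Cd82 when the difference itself was tested. The interaction, the log2 change in App mice minus that in WT mice, was −0.71 for Cd9 (SE 0.108, adjusted p = 0.000287), −0.77 for Cd63 (SE 0.124, adjusted p = 0.000432) and 0.66 for Cd82 (SE 0.0948, adjusted p = 0.00016). The interactions of Cd81, Cd37, Cd53 and Cd151 were not called, and 9.14% of all genes were (3.79% above 0 and 5.35% below). Between the ATV:4D9 groups, App mice had more Cd63 than WT mice (1207 ± 95.1 against 913 ± 94.6 CPM, SD, n = 4 each, log2 difference 0.40, adjusted p = 0.00351) and more Cd82 (65.0 ± 4.16 against 53.1 ± 1.20 CPM, SD, n = 4 each, log2 difference 0.29, adjusted p = 0.00561). Neither gene overlapped between these groups. The background of the calls was 11.8% of all genes, 7.84% higher and 3.98% lower. With the total UMI count alone the Cd82 difference was 0.15 (adjusted p = 0.199). Cd9 was 0.20 higher on the log2 scale (adjusted p = 0.0920), and it was called with the pool as a block (0.20, adjusted p = 0.00553, background 31.4%) and without WT ATV:4D9 replicate 1 (0.25, adjusted p = 0.0451). Cd151 was called lower only with the block (−0.12, adjusted p = 0.00669; −0.11, adjusted p = 0.733 without it). Cd81 (0.04, adjusted p = 0.932), Cd37 (−0.01, adjusted p = 0.973) and Cd53 (0.03, adjusted p = 0.838) were not called in this comparison.

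On UMIs per cell, the members whose CPM fell with ATV:4D9 were level or higher. The cells of ATV:4D9 mice held more UMIs in total, so a lower CPM need not be fewer transcripts per cell. Cd37 rose per cell from 4.63 ± 0.251 UMIs in WT ATV:ISO to 6.07 ± 0.192 in WT ATV:4D9 mice (SD, n = 4 each), and was 5.21 ± 0.050 in App ATV:ISO, 5.53 ± 0.521 in App 4D9 and 5.59 ± 0.141 in App ATV:4D9 mice. Cd53 behaved alike, with 4.65 ± 0.643 UMIs per cell in WT ATV:ISO, 6.11 ± 0.645 in WT ATV:4D9, 5.21 ± 0.659 in App ATV:ISO and 5.79 ± 0.594 in App ATV:4D9 mice. Cd82 per cell was 0.904 ± 0.137 in WT ATV:ISO and 0.915 ± 0.123 in WT ATV:4D9 mice, within the spread of the mice, and 0.822 ± 0.111 and 1.04 ± 0.133 in App mice under ATV:ISO and ATV:4D9. So with ATV:4D9 the lower share of Cd82, Cd37 and Cd53 among all transcripts went with counts per cell that were level or higher, while for App against WT mice under ATV:ISO the mean of Cd82 was the lower one per cell too. Cd9 per cell was 14.5 ± 1.19 in WT ATV:ISO, 41.3 ± 3.48 in WT ATV:4D9, 32.0 ± 3.16 in App ATV:ISO and 44.0 ± 3.62 in App ATV:4D9 mice, so that in App mice, where its CPM was level, its count per cell was higher after ATV:4D9. Capture depth and RNA content per cell cannot be told apart in these counts, and no test was run on them.

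**Figure D3:**
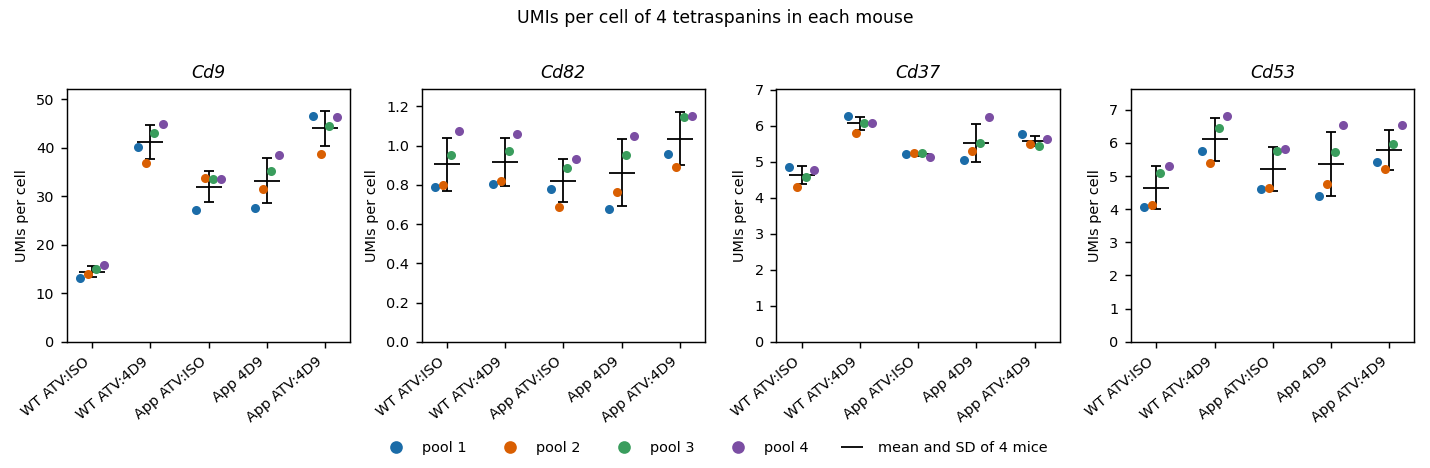
Mean UMIs per cell of Cd9, Cd82, Cd37 and Cd53 (vertical axis, linear) in each mouse by group, with points for mice and bars for the mean and SD of 4 mice. Unlike their CPM, Cd37 and Cd53 per cell are not lower in the ATV:4D9 groups, with means of 6.07 and 6.11 in WT ATV:4D9 mice.

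The authors' clustering at resolution 0.2 gives 6 unnamed clusters, which are described here by marker lists and not named as cell types. Cluster 0 was highest in microglia markers, cluster 1 in plaque-associated genes, cluster 3 in immediate early genes, cluster 4 in cell cycle genes and cluster 5 in interferon genes, and cluster 2 led in none of the lists. Their shares differed strongly between groups. Cluster 0 held on average 60.4% of the cells of a WT ATV:ISO mouse and 3.11% after ATV:4D9, cluster 2 rose from 1.345% to 47.8% and cluster 4 from 0.351% to 39.95%. In App mice cluster 1 held 38.3% under ATV:ISO, 39.4% under 4D9 and 13.5% under ATV:4D9, and cluster 5 held 2.48%, 1.504% and 22.4%. The clusters were built from the expression of the same cells, so differences between them are descriptions without a test.

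Averaged over mice, Cd9 and Cd63 were lowest in clusters 0 and 3 and highest in cluster 1. Cd9 averaged 1758 CPM in cluster 0, 3559 in cluster 1, 3010.2 in cluster 2, 1832 in cluster 3, 2464 in cluster 4 and 2516 in cluster 5, over the 16 to 20 mice that gave a cluster at least 20 cells. Cd63 averaged 517, 2144, 1282, 572, 956 and 1062 CPM in the same order. Within single mice the median log2 ratio of cluster 1 to cluster 0 was 1.03 for Cd9 and 2.00 for Cd63, above 0 in 16 of 16 mice for both. Cluster 2 was higher than cluster 0 in 20 of 20 mice (medians 0.75 and 1.30), cluster 4 in 16 of 16 (0.44 and 0.85) and cluster 5 in 17 of 17 (0.48 and 1.07). Cluster 1 was above cluster 2 in 12 of 16 mice for Cd9 and in 15 of 16 for Cd63. The mean of Cd9 was level between them in App ATV:4D9 mice (3169 and 3165 CPM), and only 1 WT ATV:4D9 mouse had enough cells in cluster 1, at 2531 CPM against a mean of 2774 in cluster 2 of that group. By the median over all mice cluster 3 was close to cluster 0, at 0.04 and 0.06, and above it in 14 of 20 mice for each gene. For both genes this differed by group. The means of Cd9 in clusters 3 and 0 were 2025 and 1807 CPM in App ATV:4D9 and 1960 and 1808 CPM in WT ATV:4D9 mice. They were 1415 and 1432 CPM in WT ATV:ISO, 1884 and 1869 CPM in App ATV:ISO and 1875 and 1876 CPM in App 4D9 mice. The means of Cd63 in clusters 3 and 0 were 677 and 500 CPM in App ATV:4D9 and 558 and 460 CPM in WT ATV:4D9 mice. In WT ATV:ISO mice they were 510 and 511 CPM, in App ATV:ISO mice 561 and 564 CPM and in App 4D9 mice 556 and 548 CPM.

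Cd82, Cd37 and Cd53 averaged less in clusters 2, 4 and 5 than in cluster 0, and least in cluster 4. Cd82 averaged 89.2 CPM in cluster 0 and 90.5 in cluster 3, against 63.1 in cluster 1, 60.2 in cluster 2, 50.3 in cluster 4 and 74.7 in cluster 5. Its median log2 ratio to cluster 0 within a mouse was −0.57 in clusters 1 and 2 and −0.79 in cluster 4, below 0 in every mouse that had both clusters. Cd37 (489.9, 479, 389, 487, 318 and 382 CPM in clusters 0 to 5) and Cd53 (483, 457, 393, 447, 354 and 399 CPM) differed from Cd82 in cluster 1, where their medians were −0.05 and −0.02 and 6 of 16 mice were above cluster 0 for each. In cluster 4 both were lower in all 16 mice, by medians of −0.61 and −0.44. Cd81 varied least, with medians between −0.21 and −0.05, and Cd151 fell below cluster 0 by 0.40 on the log2 scale in cluster 4, in 15 of 16 mice, with medians of −0.21 in cluster 5 and 0.07, 0.08 and −0.04 in clusters 1, 2 and 3. The means of Cd151 in clusters 4 and 0 were 36.7 and 65.9 CPM in App ATV:ISO and 45.3 and 67.3 CPM in App 4D9 mice. They were nearer in App ATV:4D9 (57.5 and 66.1 CPM) and WT ATV:4D9 mice (62.9 and 75.4 CPM). On UMIs per cell, with no scaling to the total, 6 of 7 members were higher in cluster 1 than in cluster 0 and all 7 in each of clusters 2 to 5. In clusters 2, 4 and 5 the lower levels of Cd82, Cd37 and Cd53 thus hold for their share of transcripts only. In cluster 1 the member that was not higher per cell was Cd82.

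**Figure D4:**
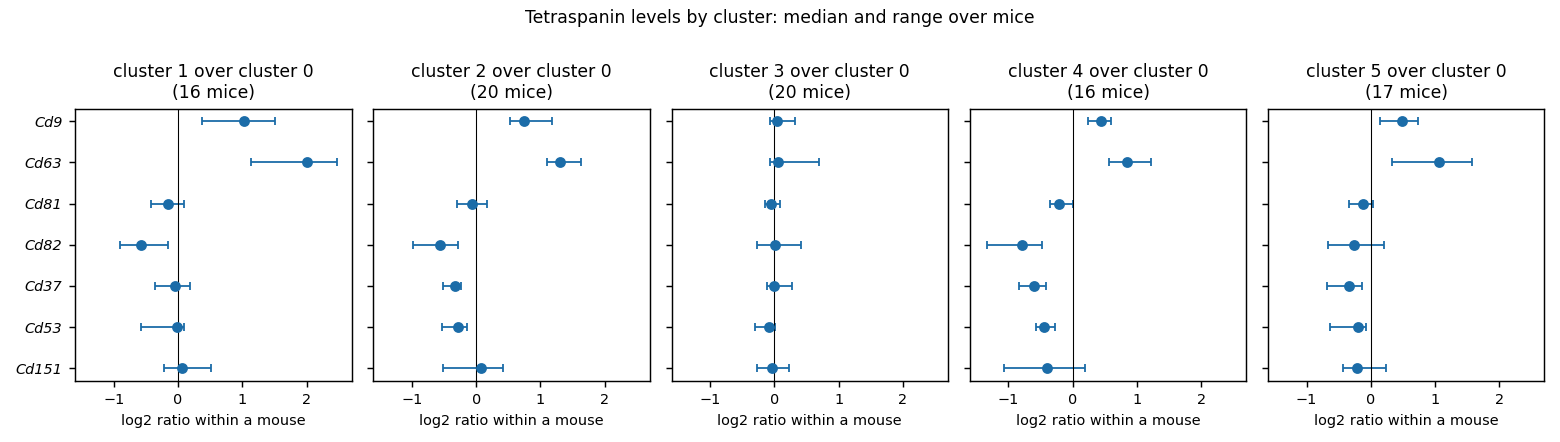
Log2 ratio of each tetraspanin's CPM in clusters 1 to 5 to that in cluster 0 of the same mouse (horizontal axis), with points for the median and bars for the range over the 16 to 20 mice with both clusters. Cd9 and Cd63 lie above 0 in clusters 1, 2, 4 and 5, with the largest median of 2.00 for Cd63 in cluster 1, and Cd82 lies below 0 in clusters 1, 2 and 4.

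Because the cluster shares differed so much, the group differences were also computed with the same weight for every cluster in all groups. TMM was set over the sums per mouse for the values over all cells, and over all sums per mouse and cluster for those at equal weights. The values set side by side thus differ in scaling as well as in weights, and the part of each was not tested. For ATV:4D9 in WT mice, over the 3 clusters that both groups filled (0, 2 and 3), Cd9 was 0.22 higher on the log2 scale against 0.67 over all cells, and Cd63 was −0.15 against 0.69. Cd82 was −0.26 against −0.83, Cd37 was 0.04 against −0.46 and Cd53 was −0.08 against −0.45. Thus the 5 members called in that comparison were nearer 0 at equal weights, with Cd63 and Cd37 on the other side of 0. The other 2 members, which were not called, were farther from 0, Cd81 at 0.35 against 0.21 and Cd151 at 0.22 against 0.04. These weights leave out cluster 4, which held 39.95% of the cells of WT ATV:4D9 mice and had the lowest means of Cd82, Cd37 and Cd53. For App against WT mice under ATV:ISO, over 4 clusters, Cd9 was 0.33 against 0.91, Cd63 0.15 against 1.17 and Cd82 −0.15 against −0.37. For ATV:4D9 in App mice, over 6 clusters, Cd37 was −0.06 against −0.40, Cd53 −0.12 against −0.34 and Cd82 0.07 against −0.17, and Cd81 was 0.29 against 0.21. With the clusters of resolution 0.4 the WT values were 0.39 for Cd9, 0.036 for Cd63 and −0.15 for Cd53, and those for ATV:4D9 in App mice were −0.16 for Cd37, −0.19 for Cd53 and 0.02 for Cd82. These are descriptions without a test.

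**Figure D5:**
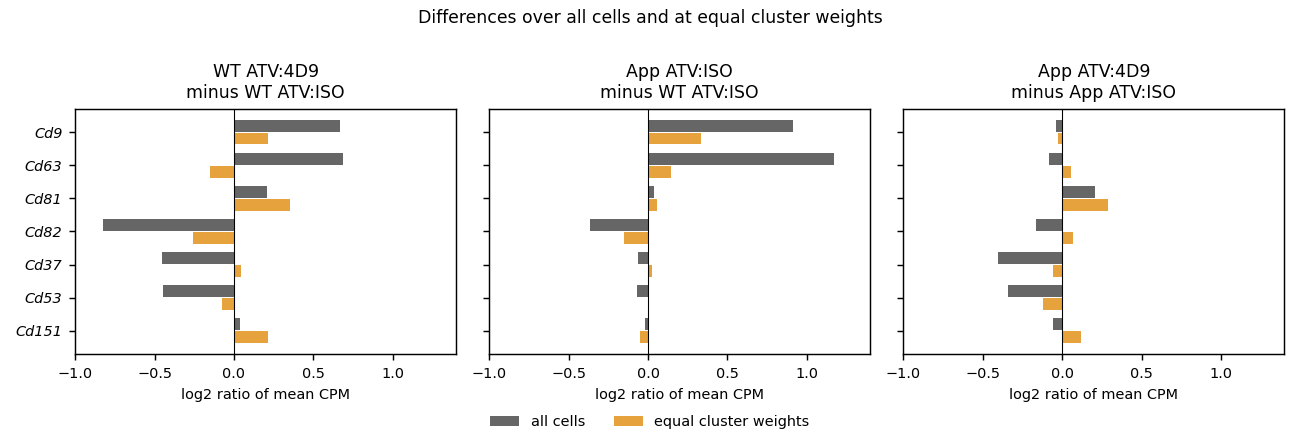
Log2 difference of each tetraspanin over all cells and at equal cluster weights (horizontal axis) in 3 comparisons. TMM was set over the sums per mouse for the first and over all sums per mouse and cluster for the second. In WT mice given ATV:4D9, Cd9 goes from 0.67 over all cells to 0.22 at equal weights and Cd82 from −0.83 to −0.26, while Cd81 goes from 0.21 to 0.35.

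Within single clusters, tests on the sums per mouse and cluster called 13 of 231 member tests over 33 comparisons of groups with at least 3 mice each, against 4.61% of the gene tests in all of them. The number called is thus close to the background and not in itself particular to the tetraspanins. Levels in this paragraph are scaled within the cluster unless stated. Cd9 gave 4 of the calls, all in the clusters where it was low. In cluster 3, scaled over all clusters, it was 1473, 1379.6, 1389.9 and 1418 CPM in the WT ATV:ISO mice and 2068, 1982, 1809 and 1982 CPM in the WT ATV:4D9 mice. The fitted log2 difference was 0.50 (SE 0.0833, adjusted p = 0.000425), and it was called in each of the 4 fits that left out 1 pool. App ATV:ISO mice were higher than WT ATV:ISO mice as well, with 1805, 1991, 1885 and 1854 CPM, also scaled over all clusters (fitted log2 difference 0.41, adjusted p = 0.0343). In cluster 0 Cd9 was higher by 0.37 with ATV:4D9 in WT mice (2101 ± 165 against 1625 ± 73.1 CPM, SD, n = 4 each, adjusted p = 0.0141) and by 0.38 in App against WT mice under ATV:ISO (2109 ± 73.8 CPM, SD, n = 4, adjusted p = 0.0258). These Cd9 groups did not overlap. Cluster 3 held on average 35.8% of the cells of a WT ATV:ISO mouse and 4.56% of those of a WT ATV:4D9 mouse. The clusters were made from expression, so which cells are compared within a cluster also depends on the genes measured. The background of the calls was 6.17% and 0.189% of genes in cluster 3 and 1.47% and 0.274% in cluster 0. In cluster 2 the fitted difference of Cd9 with ATV:4D9 in WT mice was −0.17 (adjusted p = 0.354). Scaled over all clusters, the means of Cd9 there were level, at 2774 CPM under ATV:4D9 and 2782 CPM under ATV:ISO. Without 1 pool, the adjusted p of the 3 other Cd9 calls ranged from 0.0200 to 0.649, and they were kept in 1 or 2 of 4 fits, with log2 differences of 0.34 to 0.45.

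The remaining 9 calls within clusters fell on Cd63, Cd53, Cd37, Cd81 and Cd151. Levels are again scaled within the cluster unless stated. With ATV:4D9 in WT mice Cd63 was lower in cluster 2, by −0.43 (1059 ± 113 against 1431 ± 259 CPM, SD, n = 4 each, adjusted p = 0.0261), where Cd53 was lower by −0.32 (adjusted p = 0.0291) and 5.88% of genes were called. For Cd63 this is the opposite direction to that over all cells, and its WT ATV:ISO and ATV:4D9 mice overlapped. Cluster 2 held on average only 1.345% of the cells of a WT ATV:ISO mouse. Scaled over all clusters, the ATV:4D9 and ATV:ISO means in it were closer, at 1111 and 1338 CPM for Cd63 and 377 and 420 CPM for Cd53. No test was run on that scaling. In cluster 3 of the same mice Cd81 was higher by 0.45 (3453 ± 649 against 2527 ± 258 CPM, SD, n = 4 each, adjusted p = 0.0381). In App mice Cd63 was higher under ATV:4D9 in cluster 3, by 0.29 against ATV:ISO (adjusted p = 0.0343, background 4.33%) and by 0.30 against 4D9 (adjusted p = 0.0325, background 3.52%). In the cluster of resolution 0.4 that held most cells of cluster 3 (11197 of 12993) the first of these was −0.021. In the interferon-high cluster 5 Cd53 was lower under ATV:4D9, by −0.31 against ATV:ISO (344 ± 20.1 against 425 ± 26.9 CPM, SD, n = 4 each, adjusted p = 0.0196, background 29.7%) and by −0.30 against 4D9 (adjusted p = 0.0407, background 16.3%). Cd37 was lower there against 4D9, by −0.32 (adjusted p = 0.0493). Scaled over all clusters, the Cd53 means in cluster 5 were 378 CPM under ATV:4D9, 436 under ATV:ISO and 429 under 4D9. Those of Cd37 were 369 CPM under ATV:4D9 and 427 under 4D9, again without a test. In App mice under ATV:4D9 Cd151 was higher in the cell cycle-high cluster 4, by 0.53 against ATV:ISO (54.4 ± 7.59 against 37.7 ± 2.33 CPM, SD, n = 4 each, adjusted p = 0.00923, background 24.5%). Cluster 4 held on average only 0.949% of the cells of an App ATV:ISO mouse. None of these 9 was called in all 4 fits that left out 1 pool, but each kept its direction. The differences in those fits were −0.55 to −0.33 for Cd63 and −0.35 to −0.30 for Cd53 in cluster 2, 0.39 to 0.51 for Cd81 and 0.23 to 0.34 for Cd63 in cluster 3, 0.45 to 0.65 for Cd151 in cluster 4, and −0.32 to −0.27 for Cd53 and −0.33 to −0.29 for Cd37 in cluster 5. Leaving out pool 1, 2, 3 or 4 gave 8, 1, 3 and 3 calls in all, against 13. No member was called in the other 23 comparisons within clusters. These were App ATV:4D9 against ATV:ISO and against 4D9 in clusters 0 (background 0.667% and 0.65%), 1 (1.51% and 1.76%) and 2 (13.2% and 13.4%), App against WT under ATV:ISO in clusters 1 (1.21%) and 2 (0.281%), and App ATV:4D9 against 4D9 in cluster 4 (22.1%). They were also App against WT under ATV:4D9 in clusters 0 (0.154%), 2 (2.07%), 3 (0.163%), 4 (2.76%) and 5 (6.87%), the interaction in clusters 0 (0%), 2 (0.156%) and 3 (0%), and App 4D9 against ATV:ISO in all 6 clusters (0% in each).

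With the pool as a block, 43 of the 231 member tests within clusters were called, against 8.81% of the gene tests in the same comparisons. Cd81 was called higher in 8 of them, Cd53 lower in 5 and Cd37 lower in 4. The other members were called in both directions, Cd9 higher in 4 and lower in 3, Cd63 higher in 3 and lower in 4, Cd82 higher in 4 and lower in 3, and Cd151 higher in 3 and lower in 2. For Cd81 the blocked differences for ATV:4D9 in WT mice included 0.42 in cluster 0 (adjusted p = 6.02e-08, background 8.96%) and 0.44 in cluster 3 (adjusted p = 4.39e-06, background 17.5%). In the same clusters of App mice against ATV:ISO they were 0.30 (adjusted p = 0.000104, background 5.27%) and 0.38 (adjusted p = 5.32e-05, background 12.6%). In the plaque-associated cluster 1 of App mice, scaled over all clusters, Cd9 was 4177, 4310, 3818 and 3843 CPM under ATV:ISO and 3230, 3223, 3304 and 2921 CPM under ATV:4D9. Every ATV:4D9 mouse was below every ATV:ISO mouse, with a log2 difference of −0.35 that was not called without the block (adjusted p = 0.186) and was called with it (−0.35, adjusted p = 0.0269), where 1.51% of genes were called without the block and 7.77% with it. Cd82 was lower in cluster 0 of WT mice given ATV:4D9 only with the block (−0.23, adjusted p = 0.0498, against −0.23 and an adjusted p of 0.236 without it). Between the ATV:4D9 groups the block called Cd82 higher in App mice in clusters 2 (0.22, adjusted p = 0.0331, background 7.38%) and 5 (0.28, adjusted p = 0.0389, background 15.8%). It also called Cd63 higher in cluster 3 (0.25, adjusted p = 0.0254, background 1.7%) and the interaction of Cd9 in cluster 0 (−0.40, adjusted p = 0.00124, background 0.163%).

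Across the 20 mice, Cd9 and Cd63 followed each other (Pearson r = 0.977), as did Cd37 and Cd53 (r = 0.824) and Cd53 and Cd82 (r = 0.864), while Cd9 and Cd82 ran opposite (r = −0.570). Cd81 and Cd151 had r = 0.759. Among 8024 genes with a mean of at least 10 CPM, the level of Cd9 was most like those of Rpl10a (r = 0.990), P3h3 (0.987) and Ctsb (0.986), and that of Cd63 most like Rtcb (0.991), Gyg (0.989) and S100a1 (0.984). Cd82 was nearest to Lipe (0.972), Mark2 (0.957) and Sh3tc1 (0.953). For Cd37 the nearest were Fam89b (0.982), Manbal (0.980) and Fam76a (0.974), and for Cd53 Maf1 (0.984), Bckdha (0.983) and Abtb1 (0.979). Cd81 was nearest to H2-DMb1 (0.960), Tex261 (0.955) and Clic1 (0.951), and Cd151 to Cog8 (0.959), Nsmce3 (0.939) and Tmem222 (0.933). The points share groups, pools and depth, so these values only describe the order of the mice.

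Other tetraspanins and genes of their partners were counted in the same fits, where the background was 30.8% of genes called higher and 32.5% lower for ATV:4D9 in WT mice, 14.4% and 13.7% for App against WT mice under ATV:ISO, and 27.9% and 27.1% for ATV:4D9 in App mice. Of 17 tested among 22 other tetraspanins in the table, 2 were higher and 7 lower with ATV:4D9 in WT mice, with a median log2 difference of −0.14 against −0.05 for all genes. Upk1b, a uroplakin-type tetraspanin, fell from 97.1 ± 9.98 to 32.3 ± 2.47 CPM (SD, n = 4 each, log2 difference −1.59, adjusted p = 9.76e-10), a larger change than that of any of the 7 members. Tspan13 fell from 127 ± 8.16 to 67.4 ± 3.59 CPM (SD, n = 4 each, log2 difference −0.91, adjusted p = 1.83e-10), Tspan18 fell by 0.58 on the log2 scale (adjusted p = 6.57e-05) and Tspan3 rose by 0.42 (adjusted p = 0.00488). In App against WT mice under ATV:ISO, 2 of the 17 were higher and 4 lower, with Upk1b at −0.66 (adjusted p = 0.000343) and Tspan18 at −0.87 (adjusted p = 2.87e-06). Under ATV:4D9 in App mice 4 were higher and 6 lower, and Upk1b fell again (−1.24, adjusted p = 5.91e-08). Another list joined the TspanC8 group, which carries ADAM10 to the surface, with Adam10 and Adam17, and its tetraspanins are also counted in the list above. Of its 7 tested genes, 1 was higher and 1 lower with ATV:4D9 in WT mice, and 2 and 2 in App against WT mice. With ATV:4D9 in App mice 3 were higher and 0 lower, among them Adam17 (0.31, adjusted p = 0.00427) and Adam10 (0.17, adjusted p = 0.0295).

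Of 18 tested genes of proteins known to sit with tetraspanins, 9 were higher and 3 lower with ATV:4D9 in WT mice (median log2 difference 0.41 against −0.05 for all genes), 8 and 0 in App against WT mice (0.31 against −0.06) and 8 and 3 with ATV:4D9 in App mice (0.07 against −0.03). They included Ifitm3, an interferon-induced protein found with CD81 and CD9 (2.05 in WT mice, adjusted p = 1.52e-07, and 2.64 in App mice, adjusted p = 8.01e-09), Vcam1, an adhesion receptor (1.71, adjusted p = 1.36e-08, and 2.64, adjusted p = 3.39e-11), and Cd74, the invariant chain of antigen presentation (2.92 in App against WT mice, adjusted p = 2.39e-08). Of 21 exosome and multivesicular body genes, the setting in which CD63, CD9 and CD81 are used as markers, 3 were higher and 7 lower with ATV:4D9 in WT mice, 2 and 2 in App against WT mice, and 4 and 3 with ATV:4D9 in App mice, with medians of −0.06, −0.04 and 0.04. Among them Flot1, a lipid raft scaffold, was −0.55 in WT mice given ATV:4D9 (adjusted p = 0.000221), Vps37b, an ESCRT-I subunit, −0.51 (adjusted p = 1.87e-05), and Chmp4b, an ESCRT-III subunit, 0.54 with ATV:4D9 in App mice (adjusted p = 0.000772). The 12 genes of the lysosome list, the company of CD63, gave 1 higher and 5 lower in the first of these comparisons. They gave 5 and 0 in the second and 0 and 7 in the third. The medians were −0.24, 0.20 and −0.26 in the same order. Cd68, a lysosomal glycoprotein of macrophages, rose with Cd63 in WT mice given ATV:4D9 (0.64, adjusted p = 2.78e-05) while Npc1, a cholesterol exporter of lysosomes, fell (−0.63, adjusted p = 1e-05), and Npc2 was higher in App than WT mice (1.01, adjusted p = 2.53e-07). With 4D9 alone none of these lists held a called gene.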

How the data were processed

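Per the labels and the study's methods, the authors sorted brain CD11b+ cells, made 10x libraries of 4 pools in which each held 1 mouse of every group, used Cell Ranger 6.1.1 with mm10 for alignment, told the mice of a pool apart by CellPlex tags and clustered the cells with Seurat. The texts disagree on tissue and on CD45 in the sort, and filters on cells and genes are not given in the sources used here. The authors deposited raw UMI counts per gene and cell, with each cell's mouse, group, pool and cluster. The isotype label ATV:DNP02 was read as ATV:ISO.

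Here, the counts of each mouse were summed over all its cells, and over each cluster where it had 20 cells or more, and fitted with edgeR 4.0.16 (R 4.3.3) by the quasi-likelihood test with filterByExpr, TMM and 1 term per group over all 20 mice. Adjusted p-values are Benjamini-Hochberg over all genes tested, and called means under 0.05. Doublets were not sought. 1 marker gene is not reported here. Scripts were tested on simulated counts. The numbers of the pools pair the mice: deviations from group means correlated in all 40 pairs of mice of 1 pool (0.143 to 0.607), so a fit with the pool as a block was an alternative. limma 3.58.1, DESeq2 1.42.0, RLE size factors, no filter, other cell limits, resolution 0.4 and leaving out mice were others. Library size only, UMIs per cell over groups, equal cell weights over groups and leaving out pools within clusters were added after seeing the data. The members, gene lists and tests were chosen with earlier results of these data known; every member was tested in every comparison over all cells, and the genes named from a list are among its up to 4 called genes of largest change in a comparison, with a mean of at least 10 CPM. Nothing says that mice of a group were handled separately within a pool.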

Additional observations from a re-analysis of the deposited data

Results flagged for a closer look

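Cd9 in the WT ATV:4D9 group had 1 mouse far from the other 3: replicate 1 stood at 2645 CPM against 2321 to 2339.7 CPM, and its gap to the nearest mouse was 0.942 of the range of the group, above Dixon's limit for 4 samples. Of 35 sets of a gene and a group examined this was the only one past the limit, and chance alone passes about 1 in 20. With the total UMI count alone and no TMM factor, Cd9 in the WT ATV:4D9 mice was closer together. Replicates 1 to 4 were then at 2540, 2472, 2447 and 2392 CPM. The response of 3 members to ATV:4D9 differed between genotypes by the interaction term: the log2 change in App minus that in WT mice was −0.71 for Cd9, −0.77 for Cd63 and 0.66 for Cd82.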

How the results depend on the processing

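Calls of members over all cells were 5 of 7 for ATV:4D9 in WT mice and 3 for the interaction in every fit that left out 1 mouse. The same fits gave 3 calls for App against WT under ATV:ISO, 2 to 3 for each of the App ATV:4D9 comparisons, 2 to 3 between the ATV:4D9 groups and 0 for 4D9. Leaving out 1 mouse moved 3 differences that were not called across 0: Cd37 in App against WT mice under ATV:ISO (−0.134 to 0.0431), Cd9 for ATV:4D9 against ATV:ISO in App mice (−0.0899 to 0.0216) and Cd151 for ATV:4D9 against 4D9 (−0.174 to 0.0122). Within clusters, leaving out 1 pool gave 1 to 8 calls against 13. With library size only, 5 members (3 with TMM) were called for App against WT under ATV:ISO, 5 (3) for ATV:4D9 against 4D9 and 1 (2) between the ATV:4D9 groups, where the median of all genes moved to −0.24, −0.09 and −0.15. With the pool as a replicate block, the last 2 gave 5 and 4 calls and the clusters 43; genes called over the whole table went from 3960 to 7166 (6787 with library size only) for App against WT under ATV:ISO, from 1661 to 4409 (2993) between the ATV:4D9 groups and from 1285 to 4284 for the interaction. The block ended none of the calls over all cells. Without the cluster highest in cell cycle genes, differences that were not called turned above 0: Cd9 0.0474 and Cd63 0.0700 for ATV:4D9 against ATV:ISO in App mice, and Cd9 0.0306, Cd63 0.0105 and Cd151 0.00943 against 4D9; for cells of 1000 to 25000 UMIs Cd63 was 2.31e-05 against ATV:ISO. At resolution 0.4, Cd63 for ATV:4D9 against ATV:ISO in App mice was −0.0209 in the cluster that held most cells of cluster 3, its value at equal weights in WT mice was 0.0363, and 2 members (4 in the main description) were higher at equal weights in each App ATV:4D9 comparison. On UMIs per cell, the log2 differences for ATV:4D9 in WT mice, in App mice against ATV:ISO and against 4D9 were 0.0171, 0.33 and 0.27 for Cd82, 0.39, 0.10 and 0.0154 for Cd37, and 0.39, 0.15 and 0.11 for Cd53, all above 0. On the same scale members higher than in cluster 0 were 6, 7, 7, 7 and 7 in clusters 1 to 5 (3, 3, 3, 2 and 2 on CPM), with Cd81 at 0.43 in cluster 1, Cd82 0.31, Cd37 0.52 and Cd53 0.54 in cluster 2, Cd53 0.16 in cluster 3, Cd81 1.03, Cd82 0.44, Cd37 0.59, Cd53 0.80 and Cd151 0.82 in cluster 4, and Cd81 0.56, Cd82 0.47, Cd37 0.34, Cd53 0.38 and Cd151 0.50 in cluster 5. With every cell weighted equally, 0 members were higher in cluster 3 than in cluster 0 (3 in the main description). The cause of these changes was not tested. Members with under 1 UMI per cell (Cd82 in 4 of the 5 groups and Cd151 in 4) rest on the sums over cells.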
